A study of Mus musculus with 2 samples.

Results

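Chemokines and chemokine receptors were followed in C2C12 myotubes, skeletal muscle cells in culture, after addition of exosomes from pancreatic cells. The members were all array gene names made of Ccl, Cxcl, Cx3cl1, Xcl1, Ccr, Cxcr, Cx3cr1, Ackr or Ccrl with their number. This rule used names alone, but it was chosen with earlier results of these data known. The members were 58 genes, read by 82 probes, of 37055 gene names with a value on both arrays. Of these, 36 encoded ligands, 17 conventional receptors and 5 atypical receptors.

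C2C12 is a mouse myoblast line, and per the labels it had been differentiated into myotubes in medium with 2% horse serum. The treated cells (KPC-exo) received 4 µg of exosomes, small vesicles that cells release, from a pancreatic cancer line, and RNA was measured after 24 h. That line came from tumour tissue of mice with the alleles KrasLSL-G12D/+ and Trp53LSL-R172H/+ together with Pdx1-Cre, in which Cre is active in the pancreatic lineage. The control cells (MPDC-exo) received, also for 24 h, vesicles of MPDC, a mouse line of pancreatic ductal epithelium, at a dose not given in the sources used here. Cells without exosomes were not analysed here. Each group was 1 array of RNA from 1 cell line, and the labels do not say how many cultures it came from. Every difference below therefore lies between 2 arrays, has no replicate check, and carries no test.

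Chemokines are small secreted proteins that direct the migration of cells, and they are classed by the spacing of conserved cysteines into CC, CXC, CX3C and XC ligands. Conventional receptors signal through inhibitory G proteins, whereas atypical receptors bind chemokines without that coupling and mostly scavenge them. In muscle, monocyte-attracting CC ligands are known from the response to injury, and Cxcl12 with its receptor Cxcr4 is known for guiding muscle precursor cells.

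Raw signals were higher in general with KPC-exo, where the 75th percentile lay at 639 units, than with MPDC-exo, where it lay at 380 units. Levels are therefore given as raw signal on each array, and differences as KPC-exo minus MPDC-exo on the log2 scale after each array was centred on its 75th percentile. A gene was taken as measured where both arrays called its brightest probe well above background, and no spot was saturated. The ± beside a difference is the scanner software's error of the spots, which holds no variation between cultures. Brightness differs between probes for reasons other than RNA amount, so levels of different genes are not compared. All 9 myotube markers were measured, among them Myog (5.74 and 5.59, centred log2 signal with MPDC-exo and with KPC-exo), Myh3 (6.08 and 5.92) and Acta1 (6.61 and 6.49), and their differences ran from -0.43 (Ckm) to 0.34 (Tnnt3). Of the myoblast markers 2 of 3 were measured, with differences of -0.28 and -0.09. Of the leukocyte and macrophage markers, 5 of 8 were measured, from -0.87 to 0.29 in their differences. Ptprc, which encodes the pan-leukocyte antigen CD45, stood at 0.27 and 0.55, and Csf1r, a receptor of macrophages, stood at 0.03 and -0.84, 1.83-fold lower with KPC-exo. Lyz2 differed by 0.22, Cd14 by 0.15 and Itgam by -0.10, so their differences ran both ways, and Adgre1, Fcgr1 and Laptm5 were well above background on neither array. Of the lymphocyte markers 2 of 4 were measured, both lower with KPC-exo, with differences of -0.77 (Cd3e) and -0.29 (Cd4). Of the neutrophil markers 1 of 3 was measured, of the endothelial markers 1 of 3 and of the epithelial markers 1 of 6. Their part in the chemokine values was not tested, and in such bulk RNA a change in cell numbers cannot be told apart from one in RNA per cell.

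The members fell into a measured and an unmeasured part that was the same on both arrays. Of the 58 genes, 23 were measured (39.7%), against a background of 45.6% of all gene names. The other 35 were well above background on neither array, and no gene was so on 1 array only. The share of all genes so on 1 array only is not given here, so that count has no background beside it. Over all probes, 45.9% were well above background with MPDC-exo and 47.6% with KPC-exo. Ligands were measured in 17 of 36 genes (47.2%) and receptors in 6 of 22 (27.3%). Among receptors the conventional ones were measured in 3 of 17 genes (17.6%) and the atypical ones in 3 of 5. The 47 probes of the unmeasured genes had a median signal of 6.59 units (6.20 to 22.8) with MPDC-exo and 9.59 units (9.41 to 42.9) with KPC-exo. The lowest signals called well above background were 31.2 and 47.3 units, so these genes have only an upper bound on either array.

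**Figure D1:**
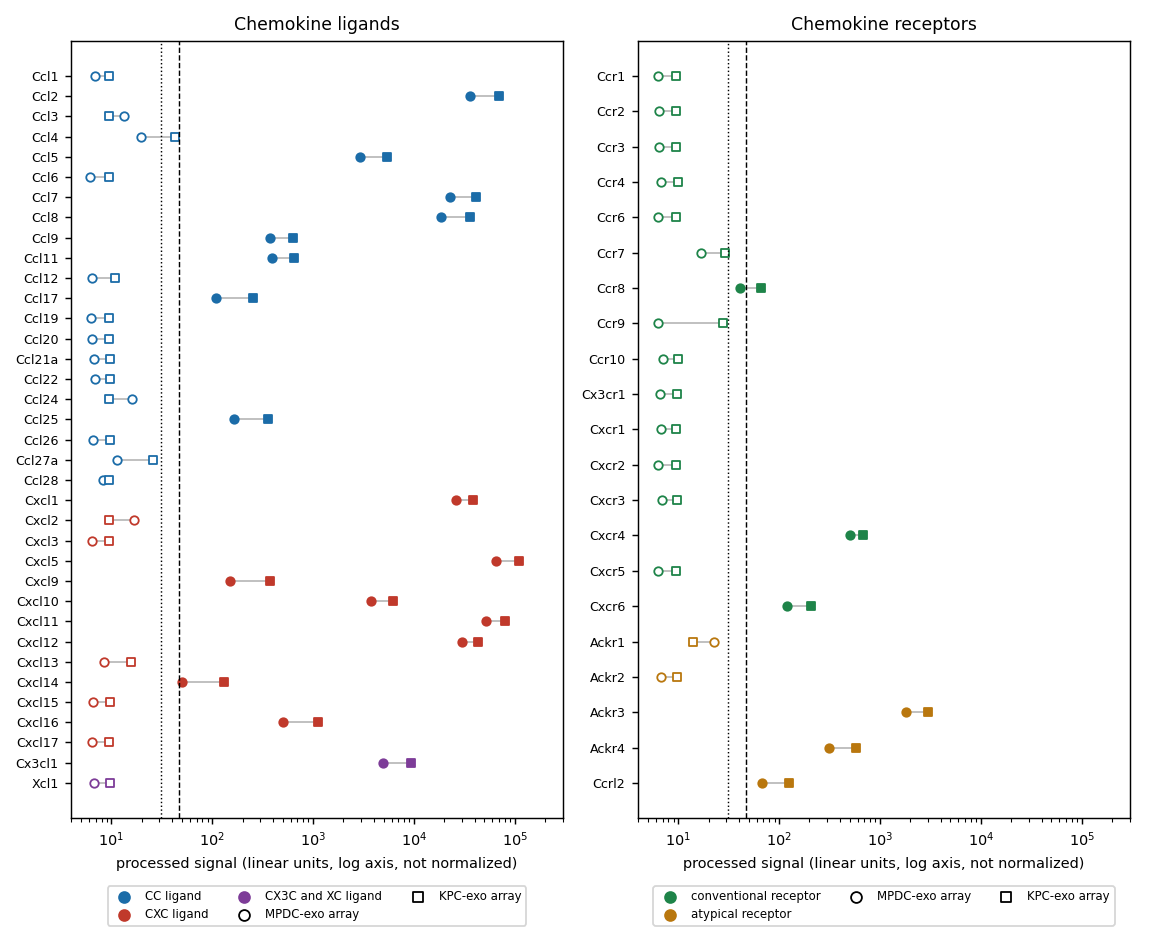
Processed signal of the brightest probe of each gene shown, in linear units on a log axis before any centring, on the MPDC-exo array (circles) and the KPC-exo array (squares). Filled symbols are well above background and open symbols are not, colours give the class, and the dotted and dashed lines mark the lowest signal called well above background with MPDC-exo (31.2 units) and with KPC-exo (47.3 units). The 23 measured genes are filled on both arrays and the other genes shown are open on both, and different rows are not comparable in level.

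Of 21 CC ligands, 8 were measured. Ccl2, Ccl7 and Ccl8, which attract monocytes, were all measured. Ccl2 gave 35814 units with MPDC-exo and 70458 units with KPC-exo, a centred difference of 0.23 ± 0.20. Ccl7 gave 22634 and 41003.5 units, a difference of 0.11 ± 0.20. Ccl8 gave 18385.5 and 36005 units, a difference of 0.22 ± 0.20. Each of these differences was positive and within 2 errors.

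Ccl5, which attracts T cells and monocytes, gave 2901 and 5365 units and a difference of 0.14 ± 0.20. Ccl9, a macrophage chemokine of rodents, gave 375 and 639 units and a difference of 0.02 ± 0.21. Ccl11, or eotaxin, which attracts eosinophils, gave 395 and 649.9 units and a difference of -0.03 ± 0.21. These differences were smaller than their errors.

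Ccl17, a ligand of Ccr4 on T cells, gave 109 and 254 units. After centring it was higher on the KPC-exo array by 0.48 ± 0.23, or 1.39-fold, the highest difference among the CC ligands. Ccl25, known from thymus and gut where it attracts T cells, gave 163 and 361 units and a difference of 0.40 ± 0.22 (1.32-fold), on 1 of its 4 probes. The other 3 Ccl25 probes were well above background on neither array. The CC ligands had a median difference of 0.18, with 6 above and 2 below the median of all measured genes, which was 0.06. The 13 unmeasured CC ligands were Ccl1, Ccl3, Ccl4, Ccl6, Ccl12, Ccl19, Ccl20, Ccl21a, Ccl22, Ccl24, Ccl26, Ccl27a and Ccl28.

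Of 13 CXC ligands, 8 were measured. Cxcl1 and Cxcl5, which attract neutrophils through Cxcr2, were both measured. Cxcl1 gave 26268 and 38154 units, and its centred difference was -0.21 ± 0.20. Cxcl5 gave 65532 and 111046 units and a difference of 0.01 ± 0.20. Cxcl5 thus stood at nearly the same centred level on both arrays, at 7.43 and 7.44. Cxcl2 and Cxcl3, which also act through Cxcr2, were well above background on neither array.

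Cxcl9, Cxcl10 and Cxcl11 are the interferon-inducible ligands of Cxcr3, and all were measured. Cxcl9 gave 149 and 371 units, a difference of 0.56 ± 0.22 (1.48-fold). Cxcl10 gave 3765 and 6206 units, a difference of -0.03 ± 0.20. Cxcl11 gave 51603 and 79246 units, a difference of -0.13 ± 0.20. Of these brightest probes only that of Cxcl9 exceeded 2 errors, and those of Cxcl10 and Cxcl11 lay within their error. A further Cxcl10 probe passed the detection call only with KPC-exo, at 8.23 and 60.4 units, which bounds its difference at 1.15-fold or more higher there (0.21 on the log2 scale). It was the only one of the 82 probes to be so on 1 array alone, and the share over all probes is not given here. This Cxcl10 probe was not matched to RefSeq by accession. The less bright Cxcl11 probe gave 886 and 1913 units and a difference of 0.36, opposite in sign to the brighter one. Its spot carried the software's background flag on both arrays, and neither Cxcl11 probe was matched to RefSeq by accession. In the brighter Cxcl11 probe, 42 of 60 bases recur in probes or promoters of other genes, as described below. How much of its signal came from Cxcl11 RNA was not tested.

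Cxcl12, the ligand of Cxcr4 and Ackr3, was measured by both of its probes. The brighter probe, matched by accession to transcript variant 3, gave 29789 and 43077 units and a difference of -0.22 ± 0.20. The other, matched to transcript variant 1, gave 8704 and 13486.5 units and a difference of -0.12. Both probes lay on the same side, and neither exceeded 2 errors.

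Cxcl14, a chemokine of epithelia and other tissues at rest, gave 50.3 and 131 units. Its centred difference of 0.63 ± 0.30 (1.55-fold) was the only one of the 23 to reach 1.5-fold. The value rests on 1 probe, whose MPDC-exo signal lay near the lowest level called well above background, and the other Cxcl14 probe was well above background on neither array. The first 30 bases of the probe that was read (chr13:56390078-56390137, mm9, minus strand) are shown to identify it, with no base in capitals.
Cxcl14: cctcattagaggccgcactgtatggctgtg

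Cxcl16, a membrane-anchored ligand of Cxcr6 that can be shed, gave 505 and 1126 units and a difference of 0.41 ± 0.21 (1.33-fold). Its other probe gave 211 and 320.5 units and a difference of -0.14, so the sign depended on the probe. The unmeasured CXC ligands besides Cxcl2 and Cxcl3 were Cxcl13, Cxcl15 and Cxcl17. The CXC ligands had a median difference of -0.01, with 3 above and 5 below the median of all measured genes.

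Cx3cl1, or fractalkine, a membrane-anchored ligand that holds cells bearing Cx3cr1, gave 4991 and 9333.5 units on its brighter probe and a difference of 0.16 ± 0.20. Its other probe gave 92.1 and 63.0 units, a difference of -1.30. Unlike the brighter probe, that other probe was not matched to RefSeq by accession. The gap of 1.45 between the 2 probes was the widest among the 7 members with 2 measured probes. The first 30 bases of both probes are shown because they give opposite signs. The brighter lies at chr8:97306185-97306244 and the other spans chr8:97296213-97301245, both on the plus strand of mm9. The second span is longer than the 60 bases of a probe, so that probe matches the genome in separate pieces. No base is in capitals.
Cx3cl1, brighter probe: tcccagagcagaatgtgggccgtaacaatc
Cx3cl1, other probe: catttgtgtactctgctgccggcttttctc

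Xcl1, a ligand that attracts cross-presenting dendritic cells, was well above background on neither array.

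**Figure D2:**
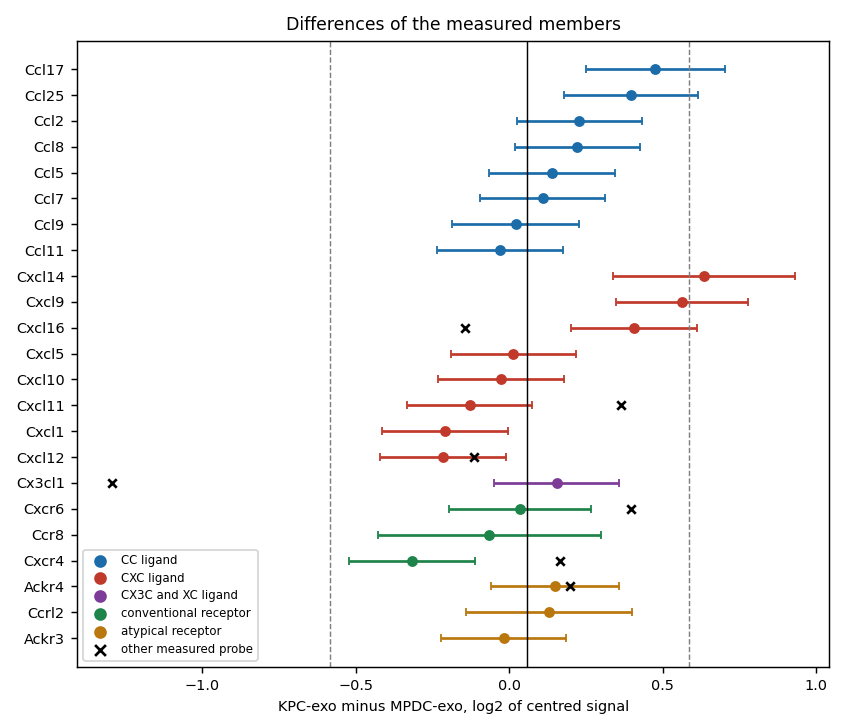
KPC-exo minus MPDC-exo difference of log2 centred signal for the 23 measured genes, ordered by class and difference, from the brightest probe (points) with the scanner software's error (bars), and other measured probes of the same gene as crosses. The solid line is the median of all measured genes (0.06) and the dashed lines mark 1.5-fold. Cxcl14 alone lies beyond 1.5-fold, at 0.63, and the crosses of Cx3cl1, Cxcl11, Cxcl16 and Cxcr4 lie on the other side of 0 from their points.

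Of 17 conventional receptors, 3 were measured. Cxcr4, the signalling receptor of Cxcl12, gave 502 and 677 units and a difference of -0.32 ± 0.21 (1.25-fold lower), the lowest of the 23. Its other probe gave 56.2 and 106 units and a difference of 0.16. The brighter spot carried a background flag on the KPC-exo array. With such spots left out, the other probe takes its place, and Cxcr4 stood at 0.11 relative to the median of all measured genes in place of -0.37.

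Cxcr6, the receptor of Cxcl16, gave 119 and 206 units and a difference of 0.04 ± 0.23, and its other probe gave 84.6 and 187 units and a difference of 0.40. Ccr8, a T cell receptor for Ccl1, gave 41.2 and 66.1 units and a difference of -0.06 ± 0.36. Both differed by less than their error on the brightest probe, and Ccr8 lay close to the detection limit. The 14 unmeasured conventional receptors included Ccr1, Ccr2, Ccr3, Ccr4, Ccr6, Ccr7, Ccr9, Ccr10, Cx3cr1, Cxcr1, Cxcr2, Cxcr3 and Cxcr5.

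Of the atypical receptors, Ackr3, Ackr4 and Ccrl2 were measured, and Ackr1 and Ackr2, broad scavengers of inflammatory chemokines, were not. Ackr3, which scavenges Cxcl12 and also binds Cxcl11, gave 1823 and 3024 units and a difference of -0.02 ± 0.20. Ackr4, which scavenges Ccl19, Ccl21 and Ccl25, gave 312 and 582 units and a difference of 0.15 ± 0.21, and its other probe gave 88.1 and 169.6 units and a difference of 0.20. Ccrl2, which binds chemerin without signalling, gave 67.5 and 124 units and a difference of 0.13 ± 0.27. No receptor differed by more than 2 errors, and the 6 measured receptors had a median difference of 0.01.

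Ligands and receptors were also set side by side in 16 textbook sets. In 2 sets both sides were measured, namely Cxcl12 with Cxcr4 and Ackr3, and Cxcl16 with Cxcr6. In 8 sets only ligands were measured. Those were Ccl2, Ccl7 and Ccl8 without Ccr2, Ccl5 without Ccr1, Ccl11 without Ccr3, Ccl17 without Ccr4, Ccl25 without Ccr9, Cxcl1 and Cxcl5 without Cxcr2, Cxcl9 to Cxcl11 without Cxcr3, and Cx3cl1 without Cx3cr1. Ccr8 was the only receptor measured without a ligand of its set, in which Ccl1 was the only ligand. In 5 sets neither side was measured. The sets do not hold every known ligand of each receptor.

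Detection was not shared by all neighbours in the chemokine gene clusters, whose positions are those of the probes on mm9. On chr11:81850650-81990510, within 140 kb, Ccl2, Ccl7, Ccl11 and Ccl8 were measured, while Ccl12 and Ccl1 gave 6.39 and 6.92 units with MPDC-exo and 10.9 and 9.49 units with KPC-exo. On chr11:83339296-83478097, Ccl5 and Ccl9 were measured and Ccl6, Ccl3 and Ccl4 were not. On chr5:91190490-91334593, Cxcl5 and Cxcl1 were measured and Cxcl3, Cxcl15 and Cxcl2 were not. Each of these clusters thus holds measured and unmeasured genes.

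The neighbouring Cxcl9, Cxcl10 and Cxcl11 on chr5:92752191-92788626 were all measured, and on chr8:97274709-97335829 Cx3cl1 and Ccl17 were measured and Ccl22 was not. In all, 36 members had a probe within 500 kb of another member's, and 15 of these were measured.

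Because Cxcl1 was measured and its cluster neighbours Cxcl2 and Cxcl3 were not, their promoters are shown beside that of Cxcl10. The stretches are the 250 bases before the annotated start, from RefSeq on GRCm38.p6, written 5′ to 3′ on the gene's strand. Capitals mark matches to the kappaB motif GGGANNTTCC, read on both strands, and in Cxcl10 also a match to the interferon response core GAAANNGAAA. They lie at chr5:90890995-90891244 (Cxcl1, plus strand), chr5:90903649-90903898 (Cxcl2, plus strand), chr5:90785851-90786100 (Cxcl3, plus strand) and chr5:92348890-92349139 (Cxcl10, minus strand).
Cxcl1: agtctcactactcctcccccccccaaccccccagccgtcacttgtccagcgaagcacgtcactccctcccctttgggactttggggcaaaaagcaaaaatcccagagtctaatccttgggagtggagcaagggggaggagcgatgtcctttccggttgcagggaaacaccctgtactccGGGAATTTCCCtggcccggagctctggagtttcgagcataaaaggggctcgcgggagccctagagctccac
Cxcl2: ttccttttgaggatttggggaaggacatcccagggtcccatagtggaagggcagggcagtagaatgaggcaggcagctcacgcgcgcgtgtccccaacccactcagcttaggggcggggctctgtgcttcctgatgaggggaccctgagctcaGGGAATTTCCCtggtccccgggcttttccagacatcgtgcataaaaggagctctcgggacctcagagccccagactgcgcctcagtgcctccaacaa
Cxcl3: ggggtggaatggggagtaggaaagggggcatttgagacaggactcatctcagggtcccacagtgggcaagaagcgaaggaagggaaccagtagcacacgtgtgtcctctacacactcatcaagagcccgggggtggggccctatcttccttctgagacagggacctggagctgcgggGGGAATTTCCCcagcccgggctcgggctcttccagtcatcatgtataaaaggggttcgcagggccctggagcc
Cxcl10: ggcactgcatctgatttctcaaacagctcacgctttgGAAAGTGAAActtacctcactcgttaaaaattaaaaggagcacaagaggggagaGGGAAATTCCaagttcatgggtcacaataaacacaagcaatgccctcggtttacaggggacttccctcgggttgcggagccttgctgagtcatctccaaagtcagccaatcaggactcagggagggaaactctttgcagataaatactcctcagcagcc

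Cxcl1, Cxcl2 and Cxcl3 all hold a kappaB match, at -71, -97 and -73 from the start, so the measured gene and its unmeasured neighbours share these letters. In each of them a match on the other strand overlaps it, and both are shown as 1 run of capitals. Cxcl10 holds one at -159 and an interferon response match at -213. Promoters from 250 bases before the start to 50 after it were given for 43 of the 58 members. The kappaB motif was found in 2 of 16 measured members (Cxcl1 and Cxcl10), in 4 of 27 unmeasured members (Ccl1, Ccr3, Cxcl2 and Cxcl3), and in 1.63% of 27025 genes. The interferon response core was found in Cxcl10 and Cxcl14 among the measured members, in Ccl19 among the unmeasured, and in 3.99% of genes. The letters TATAAA were found in 8 of 16 measured and 4 of 27 unmeasured members and in 15.7% of genes. A match describes letters in this window and is no evidence of binding.

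The probes were also compared by sequence. Of the 82 probes, 4 shared a run of at least 20 bases with a probe or promoter of a differently named gene. The brighter Cxcl11 probe stood out, with 42 of its 60 bases in such runs. Those runs recurred on the same strand in probes of 6 other genes, on the opposite strand in 2 more probes, and in the promoters of 21 genes. The window of bases 7 to 36 of the brighter probe and that of bases 19 to 48 of the other Cxcl11 probe are shown, with the shared bases in capitals.
Cxcl11, brighter probe: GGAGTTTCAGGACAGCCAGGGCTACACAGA
Cxcl11, other probe: cacttgaaagGCAGAGGCAGGAGGATCTCT

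Letters of this kind are known from B1 elements, a family of short interspersed repeats found throughout the mouse genome. The 6 probes of other genes that share the run were all well above background, at 99.1 to 127198 units (median 62953) with MPDC-exo and 256 to 184599 units (median 92918) with KPC-exo. Their differences ran from -0.30 to 0.62, with a median of -0.14, beside -0.13 for the brighter Cxcl11 probe. How much of that probe's signal came from Cxcl11 RNA was not tested. The other Cxcl11 probe, with 20 such bases and a background flag on both arrays, gave 0.36.

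Set beside all genes, the measured members differed little between the arrays. Their median difference was 0.11 against 0.06 over all 16909 measured genes, with an SD across genes of 0.25 against 0.35. They lay above that median in 12 cases and below it in 11. Of the 23, 1 was higher with KPC-exo by 1.5-fold or more, Cxcl14, against a background of 3.68% of measured genes, and 0 were lower by that much, against 3.70%. A difference of more than 2 errors in either direction was seen in 3 of 23 (Ccl17, Cxcl9 and Cxcl14), against 13.4% of measured genes. These shares are near the background.

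The larger differences lay among dim genes. The 7 members in the dimmest 25% of measured genes were Ccl17, Ccl25, Ccr8, Ccrl2, Cxcl9, Cxcl14 and Cxcr6, with a median difference of 0.40 (-0.06 to 0.63). Over all genes of that group the median was 0.07 and the SD 0.49, and 9.75% were at least 1.5-fold higher. The 8 members in the brightest 25% (Ccl2, Ccl7, Ccl8, Cx3cl1, Cxcl1, Cxcl5, Cxcl11 and Cxcl12) had a median difference of 0.06 (-0.22 to 0.23), where all genes had an SD of 0.25.

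**Figure D3:**
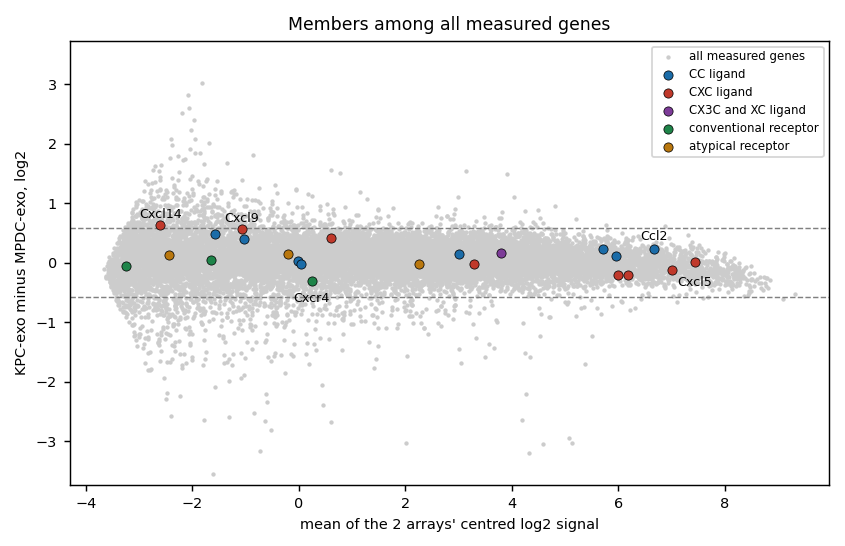
KPC-exo minus MPDC-exo log2 difference against the mean centred log2 signal of both arrays for all 16909 measured genes (grey) and the 23 measured members (coloured by class), with dashed lines at 1.5-fold. The spread of all genes narrows with signal, from an SD of 0.49 in the dimmest 25% to 0.25 in the brightest, and Cxcl14 (0.63) and Cxcl9 (0.56) lie in the dim part.

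Of the differences of Ccl17, Cxcl9 and Cxcl14, each became smaller when background was corrected by normexp, a model of signal plus background that adds an offset. They were then 0.25, 0.32 and 0.18. The mean over both measured probes in place of the brightest turned Cx3cl1 from 0.16 to -0.57. Relative to the median of all measured genes, Ccl2, Ccl5, Ccl7, Ccl8, Ccl17, Ccl25, Cxcl9, Cxcl16 and Ackr4 stayed above it in all 13 ways of processing, and Cxcl1 and Cxcl12 stayed below it in all 13. Cxcl14 stayed above it in all 12 that gave it a value, and the remaining 11 genes changed side in at least 1. For Ccl9, Ccl11, Ccr8 and Cxcl10 this happened only without the filter on dim probes, which moved the median of all genes by -0.20.

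**Figure D4:**
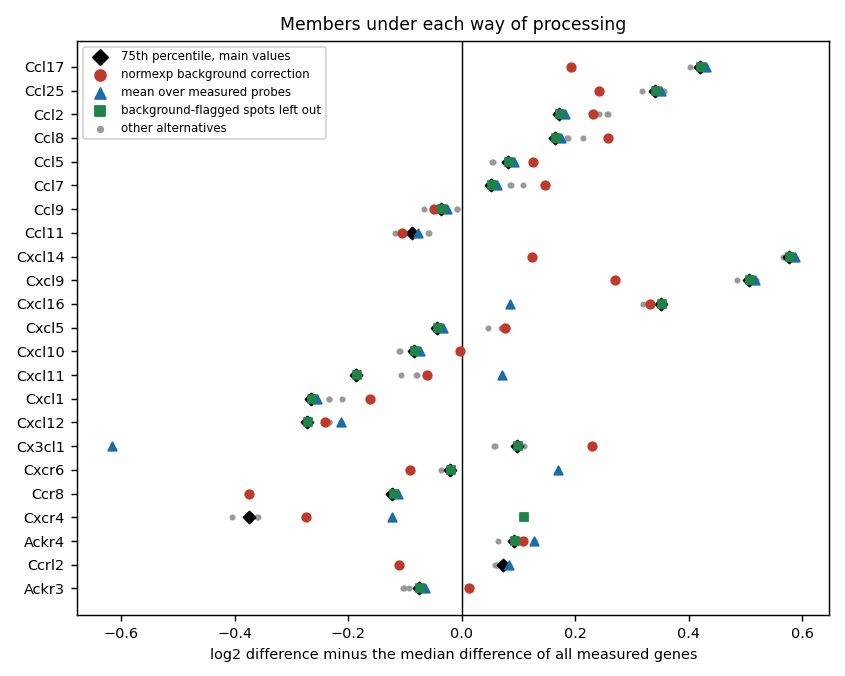
Log2 difference of each measured member minus the median difference of all measured genes, under the main values (diamonds), normexp background correction (circles), the mean over measured probes (triangles), background-flagged spots left out (squares) and other alternatives (grey points). Values without a filter on dim probes are left out of the plot. Cxcl14, Cxcl9 and Ccl17 move towards 0 with normexp, Cx3cl1 turns with the mean over probes, and Cxcr4 turns without flagged spots.

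Chemokines and related genes whose names fall outside the pattern were measured in 5 of 9 cases. Pf4, a platelet CXC chemokine, differed by 0.84 ± 0.35 and Cd74, a receptor of the cytokine Mif, by 0.90 ± 0.33, both higher with KPC-exo by 1.5-fold or more. Both were dim, at -3.38 and -3.19 on the centred log2 scale on the MPDC-exo array, and gave 0.18 and 0.23 with normexp. Rarres2, which encodes chemerin, differed by 0.44, Ppbp by 0.43 and Mif by -0.09. Only Pf4 and Ppbp of the 5 encode chemokines. The median of the 5 was 0.44, the value of Rarres2, and 0.18 with normexp.

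Genes of pathways that induce chemokine transcription, namely cytokine and Toll-like receptors with their NF-kappaB and interferon pathways, were measured in 32 of 32 cases. The list also holds inhibitors of these pathways, among them Nfkbia, Nfkbib, Nfkbie and Tnfaip3. Over all 32 genes, inhibitors included, the median difference was 0.19 against 0.06 over all measured genes, with 22 above and 10 below that median. With the mean over measured probes it was 0.10, with 20 above and 12 below. Of these genes, 1 was at least 1.5-fold higher, Nfkbie, an inhibitor of NF-kappaB that is itself induced by it. Nfkbie stood at 1.31 with MPDC-exo and 2.23 with KPC-exo in centred log2 signal, a difference of 0.91 ± 0.20 that was at least 0.83 in all 12 alternatives. None of the 32 was at least 1.5-fold lower. Irf1 and Irf7, which act in the interferon pathway, differed by 0.02 and 0.01.

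Genes of G protein coupling and receptor desensitisation were measured in 18 of 20 cases, with a median difference of 0.01 and none past 1.5-fold in either direction. The largest differences there were those of Grk6, a receptor kinase (0.49), Gnb2, a G protein beta subunit (-0.38), and Grk5, another receptor kinase (0.31). Receptor effectors were measured in 13 of 17 cases, with a median of 0.03 and none past 1.5-fold. Ptk2, the focal adhesion kinase, had the largest difference there (-0.52), followed by Plcb2 (0.30) and Pik3r5 (0.24). The effectors Pik3cg, Dock2, Rac2 and Vav1 were not measured.

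Genes that process or present chemokines, by proteolysis or on heparan sulfate, were measured in 12 of 14 cases. Their median difference was -0.10, with 2 above and 10 below the median of all measured genes, a split that became 6 and 6 with normexp. The median itself was -0.01 with normexp and -0.31 with the mean over measured probes. Ext2, which extends heparan sulfate chains, was 1.5-fold or more lower on the KPC-exo array (-0.76 ± 0.31) and was dim, at -2.33 and -3.08. With normexp it differed by -0.55, short of 1.5-fold, and the stricter filter on dim probes left it out. Dpp4, a protease that trims the ends of several chemokines, passed the detection call only with MPDC-exo.

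**Figure D5:**
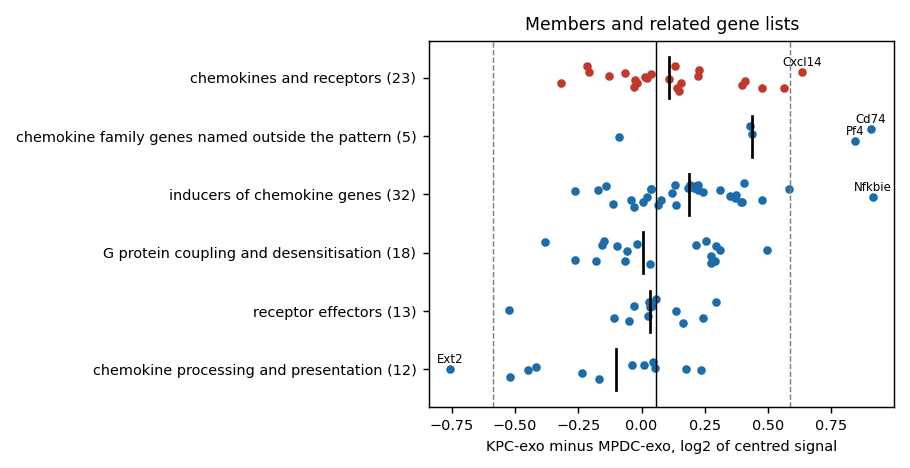
KPC-exo minus MPDC-exo log2 difference of the 23 measured members (red) and of the measured genes of 5 related lists (blue), each point a gene placed at random height within its row, with the number measured in brackets. Short bars are medians, the long line is the median of all measured genes (0.06), and dashed lines mark 1.5-fold. Named genes lie past 1.5-fold, and the medians run from -0.10 (processing and presentation) to 0.44 (genes outside the pattern).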

How the data were processed

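Total RNA of 2 samples was labelled with Cy3 and hybridised to 1-colour Agilent arrays, 1 per group, per the labels' protocols. Agilent Feature Extraction 10.7.1.1 gave the spot values, per the submitters' processing notes. The deposited scanner files hold the processed intensity of each spot on a linear scale, with background subtracted, per the file headers, and not normalized between arrays. The authors' deposited value table is on the log2 scale, its making not given in the sources used here, and served as an alternative.

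Non-uniform and outlier spots by the software's flags were dropped (102 with MPDC-exo, 166 with KPC-exo), spots of a probe were averaged, log2 was taken and each array's 75th percentile subtracted. A gene took its brightest probe, and counted as measured if both arrays called that probe well above background. Per the file headers, probe positions refer to mm9. Accessions of 73 of the 82 member probes matched RefSeq, all with the name in the files. Among those without a match were the brighter Ackr4 probe, the less bright Cx3cl1 and Cxcl10 probes and both Cxcl11 probes.

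With 1 array per group no test was run, and the number of arrays limits the precision. Differences of at least 1.5-fold, and of more than 2 errors of Feature Extraction, were counted. Spots of 292 probes printed 10 times had a median SD of 0.04 in the log2 difference, and different probes of 1 gene a pooled SD of 0.36 (5767 genes). Named were all measured members, and in each of the 5 pathway lists those past 1.5-fold or else up to 3 with the largest difference. Markers and other genes were named after their values were seen. The members and lists were chosen with earlier results of these data known. Some genes are counted but not reported here by name. Alternatives were normexp with an offset of 50, other centrings and normalizations, other filters, other probe rules and a 2-fold threshold. The counting was tried on the MPDC-exo array against a copy of itself with known shifts and small noise put in. That checks the code only, since such a copy holds no differences between cultures or between probes. Python 3.11.15, numpy 2.4.6, pandas 2.3.3, matplotlib 3.10.9, R 4.3.3 and limma 3.58.1 were used.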

Additional observations from a re-analysis of the deposited data

How the results depend on the processing

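The number of measured members was 23, and 20 with a stricter filter (3 times the lowest signal well above background), 21 with background-flagged spots left out and 23 when any probe of a gene could count, the last chosen after seeing the data. The count higher with KPC-exo by 1.5-fold or more, 1 in the main values (Cxcl14), was 0 with normexp, median centring, the 75th percentile over detected probes, cyclic loess, the stricter filter or a 2-fold threshold, 3 with no filter on dim probes and 23 with centring on 7 spike-in probes. The count lower was 0, and 4 with no filter. With no filter all 58 members counted, and of all 37055 genes 3032 were higher and 2642 lower by 1.5-fold or more. With spike-in centring 15794 of all 16909 measured genes were higher by that much. The median difference of 0.11 became 0.06 with median centring (0.0566) and cyclic loess (0.0628), 0.0542 with the percentile over detected probes, 1.11 with spike-ins and -0.15 with no filter (-0.155). Spike-in centring moved the median of all measured genes by 1.00 and no filter moved it by -0.20. Relative to all genes the members' median was 0.05 in the main values, 0.02 to 0.08 under the other alternatives and -0.01 with no filter. Quantile normalization, the series value table, the mean over probes, flagged spots kept and background-flagged spots left out kept the count higher at 1 and the count lower at 0. The cause of each change was not tested. No paired analysis was possible because each group is 1 array. Signal close to background limits Cxcl14, Ccr8 and Ccrl2 most, and the 35 unmeasured members have no difference at all.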
